A study of Homo sapiens with 20 samples.

Results

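CDKN1A, BTG2, GADD45A, SFN, PLK2 and PLK3 are p53 target genes whose products restrain the cell cycle, and their nuclear RNA was followed here after p53 activation and a peptide made to block p53. They are 6 of the 26485 gene rows measured, taken by their symbols, and all 6 were among the 15958 genes with a mean level of at least 0.5 RPM (reads per 1000000 reads in gene rows) that entered the tests. RNA came from nuclei of HCT116 cells, a human colorectal carcinoma line that is wild type for p53, and was depleted of ribosomal RNA before sequencing. Every group was electroporated, then kept for 3 hours in medium with 0.1% DMSO. The 4 conditions were Nutlin-3a at 10 µM with the stapled peptide, Nutlin-3a at 10 µM with water, DMSO with the peptide, and DMSO with water. The peptide, called bivalent or Peg6 in the labels, was electroporated at 10 µM with a further 200 nM in the medium, and was made to keep p53 from the Mediator complex. Each condition had 2 libraries in experiment 1 and 3 in experiment 2, so 5 per condition and 20 in all. No label says that replicates were separate cultures, so the p-values measure the spread between these libraries, which may be technical.

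The transcription factor p53 binds DNA and draws in coactivators such as Mediator, which passes the signal to RNA polymerase II. Nutlin-3a fits the pocket of the ubiquitin ligase MDM2 that holds p53, so p53 is no longer marked for destruction. Among its targets CDKN1A encodes p21, which inhibits cyclin-dependent kinases and with them the entry into S phase. BTG2 is an antiproliferative adaptor of the mRNA deadenylase complex, GADD45A is a stress protein that can inhibit the mitotic kinase CDK1, and SFN encodes 14-3-3 sigma, which holds cyclin B and CDK1 in the cytoplasm. PLK2 and PLK3 are polo-like kinases of the stress response, both also known as genes induced soon after growth factor stimulation.

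The promoters of 3 of the genes are shown because CDKN1A and BTG2 had the most alike profiles over the 20 libraries, while PLK2 had lower correlations with both. This was not particular to PLK2 (0.683 and 0.659), since SFN, whose promoter is not shown, had 0.691 and 0.692. Each run is the 250 bases before the start site in RefSeq on GRCh38.p14, at chr6:36678464-36678713 (plus strand) for CDKN1A, chr1:203305269-203305518 (plus strand) for BTG2 and chr5:58460087-58460336 (minus strand) for PLK2. Capitals mark GGGCGG on either strand (a GC box), TATAA on either strand, and exact matches to the consensus of a p53 half-site.
CDKN1A: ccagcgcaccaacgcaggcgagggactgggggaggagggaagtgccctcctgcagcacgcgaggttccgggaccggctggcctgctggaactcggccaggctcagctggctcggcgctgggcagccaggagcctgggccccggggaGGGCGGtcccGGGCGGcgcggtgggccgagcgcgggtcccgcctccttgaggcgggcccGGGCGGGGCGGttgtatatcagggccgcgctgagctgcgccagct
BTG2: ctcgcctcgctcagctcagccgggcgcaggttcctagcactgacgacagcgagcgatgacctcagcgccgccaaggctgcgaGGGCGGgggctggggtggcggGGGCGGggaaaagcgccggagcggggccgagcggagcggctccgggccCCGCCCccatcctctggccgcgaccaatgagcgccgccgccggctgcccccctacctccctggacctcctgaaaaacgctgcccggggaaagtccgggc
PLK2: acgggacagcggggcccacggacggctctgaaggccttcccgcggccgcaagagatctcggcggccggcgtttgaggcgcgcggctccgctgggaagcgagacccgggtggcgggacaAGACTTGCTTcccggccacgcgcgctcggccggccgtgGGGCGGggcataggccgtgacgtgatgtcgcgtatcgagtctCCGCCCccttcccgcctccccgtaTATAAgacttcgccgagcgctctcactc
CDKN1A held 4 GC boxes, of which the last 2 share a base, BTG2 held 3, and PLK2 held 2. GC boxes were in 42.3% of the 27305 promoters of this length. PLK2 alone of the 5 members with a promoter entry held an exact half-site match, AGACTTGCTT at -132 to -123 from the start site, a match that 5.53% of all promoters held. PLK2 was also the one member of the 5 with TATAA, at -28 to -24, which 19.6% of all promoters held. The distal p53 elements for which CDKN1A is known lie outside this window, and a match to letters is a description and not a bound site.

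The libraries of experiment 1 held 36717795 to 63896604 reads in gene rows, and those of experiment 2 held 18787172 to 47407746. Between 17.0 and 26.4% of these reads lay in rows of structural RNA in experiment 1, but 1.67 to 5.29% in experiment 2. The epithelial markers EPCAM and KRT8 averaged 256 and 1380 RPM, the intestinal marker VIL1 averaged 0.191, and the leukocyte marker PTPRC averaged 0.0272. Of the fibroblast and endothelial markers, COL1A1 averaged 31.9 RPM, VWF 0.912, PECAM1 0.474, COL3A1 0.0269 and COL1A2 0.00105. Replicate 2 of Nutlin-3a with water in experiment 1 stood apart, since its 10 most abundant rows took 43.5% of reads against 25.1 to 30.4% in the other 7 libraries of that experiment. Levels are given as scaled RPM, which is RPM after a scaling between libraries (a trimmed mean of M values, TMM), and the factor of that library was the smallest, at 0.685.

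**Figure D1:**
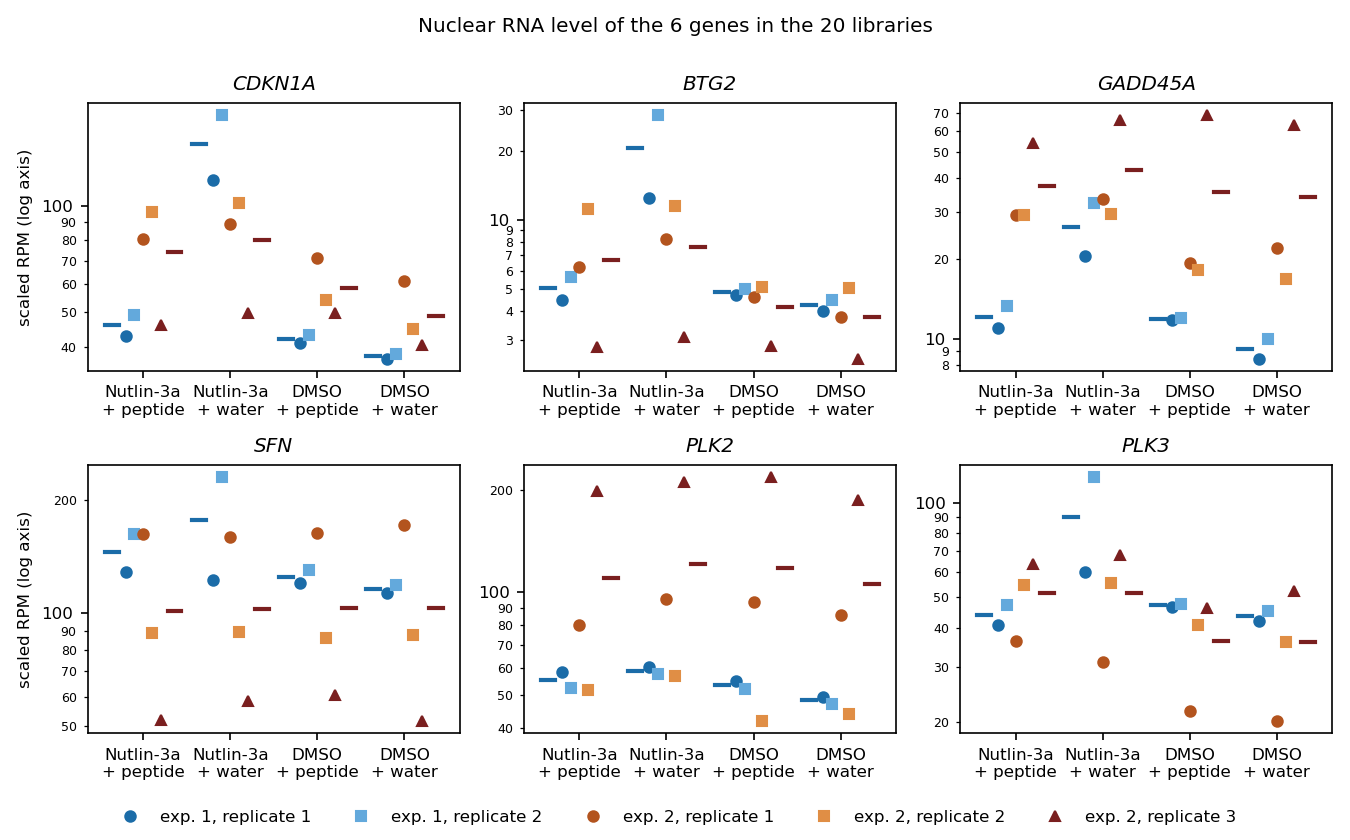
Level of each gene in scaled RPM on a log axis in the 20 libraries, by condition. Points are libraries, coloured by experiment and shaped by replicate number, and bars are the means of experiment 1 (blue, left) and experiment 2 (dark red, right); CDKN1A and BTG2 are highest in Nutlin-3a with water in experiment 1, and PLK2 and GADD45A are highest in replicate 3 of experiment 2 in every condition.

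On hg38, the coordinates of the files, the CDKN1A row spans chromosome 6 from 36678710 to 36685800 on the plus strand. SFN, PLK3, GADD45A and BTG2 lie on the plus strand of chromosome 1, SFN from 26863142 to 26863959, PLK3 from 44800364 to 44805678, GADD45A from 67685177 to 67687774, and BTG2 from 203305536 to 203307438. The PLK2 row spans chromosome 5 from 58453983 to 58459959 on the minus strand. Each row ends, at its higher coordinate, exactly where the coding part ends in GENCODE v29, as 98.5% of coding rows on the plus strand and 96.9% on the minus strand do. The 3′ untranslated part of the 5 plus-strand members is therefore outside the row, as is the 5′ untranslated part of PLK2. Rows include introns: exons of coding transcripts made up 11.6% of the CDKN1A row, 28.8% of BTG2, 31.4% of GADD45A, 38.4% of PLK3, 44.5% of PLK2 and 100% of SFN, a gene of a single exon. No other row overlaps any of the 6.

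Per kilobase of the row, SFN was the most abundant member, with a mean over the 20 libraries of 144.3 scaled RPM per kb and a range of 63.2 to 282.3. BTG2 was the least abundant, with a mean of 3.57 and a range of 1.30 to 15.0. PLK2 (mean 15.0), GADD45A (10.9), CDKN1A (9.41) and PLK3 (9.17) lay between, and their ranges overlapped. The length of a row includes its introns, so this order depends on them. Not divided by length, the means were 89.6 scaled RPM for PLK2, 66.7 for CDKN1A, 48.7 for PLK3 and 28.4 for GADD45A. SFN (118) stayed the highest and BTG2 (6.79) the lowest. In DMSO with water the order after SFN was PLK3, PLK2, CDKN1A, GADD45A and BTG2 in experiment 1, where PLK3 at 8.19 ± 0.429 and PLK2 at 8.05 ± 0.282 scaled RPM per kb (SD, n = 2) overlapped. In experiment 2 GADD45A stood above CDKN1A, at 13.1 ± 9.75 and 6.89 ± 1.57 scaled RPM per kb (SD, n = 3), with overlapping libraries. That order rested on replicate 3: without it the means were 7.46 for GADD45A and 7.49 for CDKN1A. Without the 4 libraries of replicate 3 of experiment 2, the means over the other 16 were 10.2 for PLK2, 10.1 for CDKN1A, 8.76 for PLK3 and 7.60 for GADD45A. The counts behind these levels were 1804 to 7740 reads per library for SFN and 76 to 960 for BTG2.

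CDKN1A, the p21 gene, showed one condition far above the rest in experiment 1. It had 42.8 and 49.3 scaled RPM with Nutlin-3a and peptide, 118.4 and 180.2 with Nutlin-3a and water, 41.0 and 43.3 with DMSO and peptide, and 37.0 and 38.3 with DMSO and water. Nutlin-3a with water was above each of the others, and the pair with both agents overlapped the pair with DMSO and peptide. In experiment 2 it had 80.8, 95.9 and 45.9 scaled RPM with Nutlin-3a and peptide, 88.6, 101.5 and 49.8 with Nutlin-3a and water, 71.4, 54.2 and 49.8 with DMSO and peptide, and 61.4, 44.7 and 40.4 with DMSO and water (replicates 1, 2 and 3). All 4 groups overlapped there, and within each replicate number DMSO with water was the lowest.

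BTG2 followed the same order in experiment 1. It had 4.46 and 5.61 scaled RPM with Nutlin-3a and peptide, 12.4 and 28.6 with Nutlin-3a and water, 4.68 and 4.99 with DMSO and peptide, and 3.998 and 4.459 with DMSO and water. In experiment 2 it had 6.19, 11.1 and 2.78 scaled RPM with Nutlin-3a and peptide, 8.24, 11.4 and 3.07 with Nutlin-3a and water, 4.59, 5.11 and 2.81 with DMSO and peptide, and 3.78, 5.05 and 2.47 with DMSO and water. Replicates 1 and 2 with Nutlin-3a were above those with DMSO, and replicate 3 had at most 3.07 in every condition.

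GADD45A had 10.9 and 13.3 scaled RPM with Nutlin-3a and peptide, 20.4 and 32.2 with Nutlin-3a and water, 11.7 and 12 with DMSO and peptide, and 8.44 and 9.97 with DMSO and water in experiment 1. In experiment 2 it had 29.1, 29.2 and 54.1 scaled RPM with Nutlin-3a and peptide, 33.3, 29.5 and 66.1 with Nutlin-3a and water, 19.2, 18.1 and 69.0 with DMSO and peptide, and 21.9, 16.8 and 63.03 with DMSO and water. Replicate 3 was the highest library of each group, and in replicates 1 and 2 both Nutlin-3a conditions stood above both DMSO conditions.

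PLK3 had 40.6 and 47.0 scaled RPM with Nutlin-3a and peptide, 59.9 and 120.5 with Nutlin-3a and water, 46.4 and 47.6 with DMSO and peptide, and 41.9 and 45.1 with DMSO and water in experiment 1. In experiment 2 it had 36.1, 54.4 and 63.6 scaled RPM with Nutlin-3a and peptide, 31.0, 55.5 and 68.2 with Nutlin-3a and water, 21.7, 40.8 and 46.1 with DMSO and peptide, and 20.2, 35.9 and 52.2 with DMSO and water. In experiment 2 the Nutlin-3a conditions were above the DMSO ones within every replicate number, with or without the peptide.

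SFN and PLK2 differed less between conditions than the other members in experiment 2, where the libraries grouped by replicate number. SFN had 128.9 and 162.5 scaled RPM with Nutlin-3a and peptide, 122.9 and 230.9 with Nutlin-3a and water, 120.2 and 130.4 with DMSO and peptide, and 113.1 and 119.3 with DMSO and water in experiment 1, and the highest value is that of the library that stood apart. In experiment 2 SFN had 159.7 to 171.7 scaled RPM in replicate 1, 86.1 to 89.5 in replicate 2 and 51.7 to 60.4 in replicate 3 over the 4 conditions. PLK2 had 58.1 and 52.3 scaled RPM with Nutlin-3a and peptide, 60.1 and 57.5 with Nutlin-3a and water, 54.8 and 52.1 with DMSO and peptide, and 49.3 and 46.9 with DMSO and water in experiment 1. In experiment 2 PLK2 had 79.9 to 95.5 scaled RPM in replicate 1, 41.9 to 56.7 in replicate 2 and 186.5 to 217.6 in replicate 3. For both genes the ranges of the 3 replicate numbers did not overlap.

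Nutlin-3a against DMSO in cells that received water asks how the 6 genes respond to p53 activation alone. All 6 had a fitted log2 difference above 0, with a median of 0.79 against -0.017 over all 15958 genes. The largest were BTG2, 1.29 ± 0.39 (SE), and CDKN1A, 1.18 ± 0.29, followed by GADD45A (0.86 ± 0.38), PLK3 (0.71 ± 0.29), PLK2 (0.25 ± 0.44) and SFN (0.23 ± 0.36). Each SE after a ± comes from a fit that does not pair the same-numbered libraries of an experiment. With those libraries as blocks, the SE was 0.25 for BTG2, 0.23 for CDKN1A and 0.18 for GADD45A. It was 0.16 for PLK3, 0.077 for PLK2 and 0.11 for SFN. As ratios of mean levels, BTG2 was 4.85-fold, CDKN1A 3.97-fold, GADD45A 2.86-fold and PLK3 2.07-fold higher with Nutlin-3a in experiment 1. Without replicate 2 of Nutlin-3a with water, the library that stood apart, these ratios were 2.93 for BTG2, 3.15 for CDKN1A, 2.22 for GADD45A and 1.38 for PLK3. In experiment 2 the ratios were 2.01 for BTG2, 1.64 for CDKN1A, 1.27 for GADD45A and 1.43 for PLK3. SFN had a ratio of 1.52 in experiment 1, or 1.06 without that library, and 0.989 in experiment 2, and PLK2 had 1.22 and 1.15. In bulk RNA, more cells that express a gene and more RNA per cell cannot be told apart.

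None of these differences passed limma's test over all genes, where each member had an adjusted p of 1. The call is an adjusted p under 0.05. By that rule limma called 0 genes of the 15958 (0%), and limma-voom called 0 too, while 94 genes had an unadjusted p under 0.05. CDKN1A, BTG2, PLK3 and GADD45A were 4 of the genes that were higher at that unadjusted level, which 0.445% of all genes were. The same-numbered libraries of an experiment as blocks took the genes at that unadjusted level to 1160, and 5 members, these and PLK2, were among the higher ones, as 3.50% of all genes were. With these blocks limma again called 0 genes, and the adjusted p was 0.0674 for BTG2, 0.0754 for CDKN1A, 0.0971 for GADD45A and 0.149 for PLK3. Blocked limma-voom called 15 genes (0.0940%), BTG2 among them (1.46, adjusted p = 0.0496). In experiment 1 all 6 members had both Nutlin-3a libraries above both DMSO libraries, as 9.31% of all genes did. In experiment 2 all 6 overlapped, while 1.23% of all genes did not overlap and were higher. Within same-numbered sets of libraries 5 members were higher with Nutlin-3a in 5 of 5 sets, as 3.07% of all genes were, and SFN in 4 of 5.

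**Figure D2:**
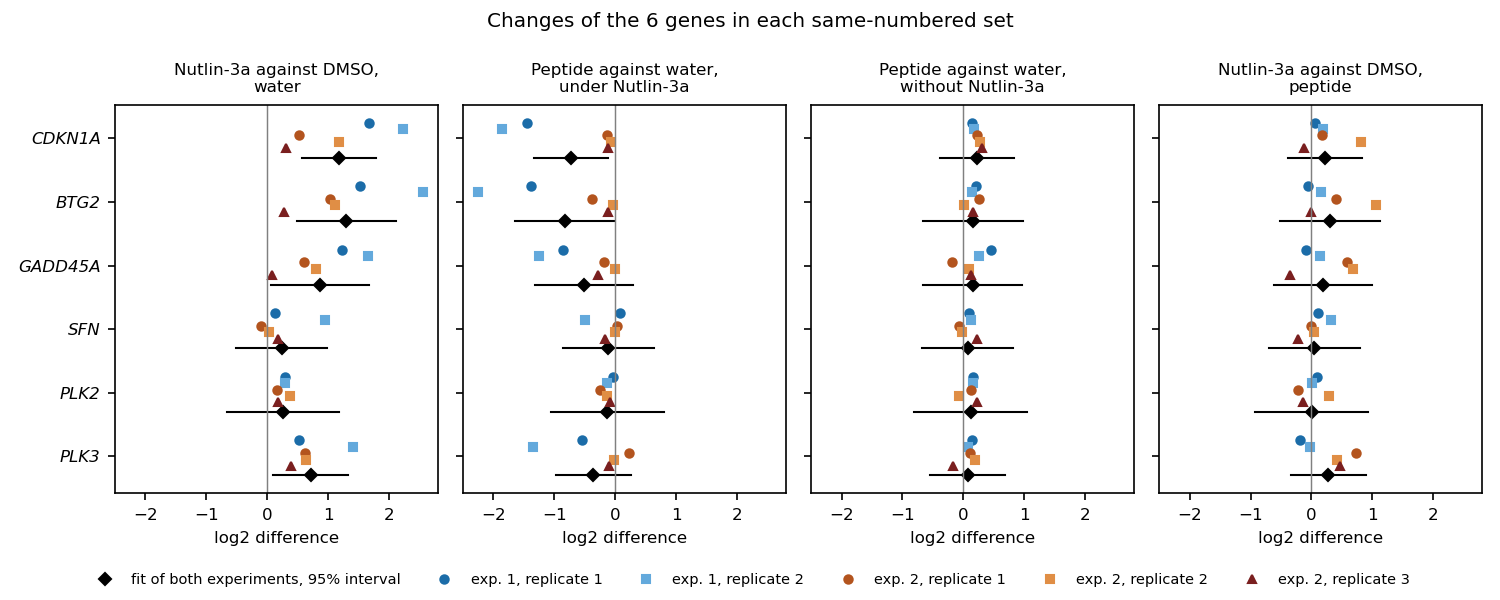
Log2 difference of each gene in the 4 comparisons. Black marks give the fit over both experiments, without replicate blocks, with its 95% interval. Coloured points are the single differences within the 5 same-numbered sets of libraries. With Nutlin-3a against DMSO in water the points of CDKN1A, BTG2, GADD45A, PLK2 and PLK3 lie above 0, and with the peptide under Nutlin-3a the points of experiment 1 for CDKN1A and BTG2 lie far below those of experiment 2.

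The peptide against water under Nutlin-3a asks whether the peptide lowers the response. All 6 fitted differences were below 0, with a median of -0.44 against 0.039 over all genes. BTG2 had -0.84 ± 0.39 (SE), CDKN1A -0.73 ± 0.29, GADD45A -0.52 ± 0.38, PLK3 -0.36 ± 0.29, PLK2 -0.13 ± 0.44 and SFN -0.12 ± 0.36. The experiments gave unlike values. In experiment 1 the level with the peptide was 0.245 of that with water for BTG2, 0.308 for CDKN1A, 0.461 for GADD45A and 0.486 for PLK3, and 0.824 for SFN and 0.939 for PLK2. Without the library that stood apart, it was 0.406 for BTG2, 0.389 for CDKN1A, 0.594 for GADD45A, 0.731 for PLK3 and 0.918 for PLK2, and SFN turned to 1.19. In experiment 2 these ratios lay between 0.872 for GADD45A and 0.996 for PLK3. CDKN1A, BTG2, GADD45A and PLK2 were lower with the peptide in 5 of 5 same-numbered sets, as 2.54% of all genes were.

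No member passed limma's test over all genes here either (adjusted p of 1 each). Limma and limma-voom each called 0 genes (0%). In limma 80 genes had an unadjusted p under 0.05, and CDKN1A and BTG2 were lower at that level, as 0.282% of all genes were. With replicate blocks 1315 genes were at that level, and CDKN1A, BTG2, GADD45A and PLK3 were among the lower ones, as 3.41% of all genes were. Blocked limma again called 0, and each of CDKN1A, BTG2, GADD45A and PLK3 had an adjusted p of 0.592. Blocked limma-voom called 3 genes, none a member. In experiment 1, CDKN1A, BTG2, GADD45A and PLK3 had both peptide libraries below both water libraries, as 11.4% of all genes did, and in experiment 2 all 6 overlapped, while 0.658% of all genes were lower without overlap.

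The difference between the experiments in this comparison was tested. It was 1.55 ± 0.47 (log2, experiment 2 minus experiment 1, SE) for CDKN1A and 1.64 ± 0.76 for BTG2, with an adjusted p of 1.00 for each in limma without blocks. With replicate blocks the adjusted p was 0.0224 for CDKN1A and 0.0483 for BTG2 in limma, 2 of the 52 genes called (0.326% of those tested). Without each of the 10 Nutlin-3a libraries in turn, CDKN1A differed by 1.30 to 1.80 and was called in 3 of 10 blocked fits of limma (adjusted p = 5.36e-05 to 0.248), and BTG2 differed by 1.14 to 2.14 and was called in 1 of 10 (adjusted p = 4.99e-05 to 0.371). The single fit that called both left out replicate 1 of Nutlin-3a with water in experiment 1, so that the library that stood apart was that group alone, and it called 7932 genes. Without the library that stood apart, CDKN1A had 1.30 (adjusted p = 0.0576) and BTG2 1.14 (adjusted p = 0.169) in limma. PLK3 had a difference of 0.98 (blocked adjusted p = 0.0827), GADD45A 0.89 (0.133), SFN 0.17 (0.615) and PLK2 -0.067 (0.812), which did not pass. For Nutlin-3a against DMSO in water, CDKN1A differed between the experiments by -1.28 and BTG2 by -1.24, with a blocked adjusted p of 0.0969 each in limma, where 3 genes were called (0.0188%). Both comparisons use the Nutlin-3a libraries with water, and replicate 2 of that group in experiment 1 is the library that stood apart. There CDKN1A had 123.4 RPM before scaling and 180.2 after it, and its replicate 1 had 118.4 after scaling. Without that library, CDKN1A had 0.92 for Nutlin-3a and -0.47 for the peptide under Nutlin-3a, and BTG2 had 0.96 and -0.50, and none passed. For the peptide under Nutlin-3a GADD45A then had -0.33 and PLK3 -0.15, and the median of the 6 was -0.24. The part of that library and of the experiments' different RNA composition in these values was not tested.

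The peptide without Nutlin-3a asks what the peptide does on its own. The 6 fitted differences were 0.22 for CDKN1A, 0.15 for BTG2, 0.15 for GADD45A, 0.12 for PLK2, 0.069 for SFN and 0.066 for PLK3, with a median of 0.13 against 0.028 over all genes. The 95% intervals, from the fit without replicate blocks, reached from -0.38 to 0.83 for CDKN1A and from -0.66 to 0.97 for BTG2. The widest of that fit was that of PLK2, from -0.81 to 1.04. With replicate blocks the SE of PLK2 was 0.077, against 0.44 without them. That of CDKN1A was 0.23 against 0.29, and that of BTG2 0.25 against 0.39. Limma and limma-voom each called 0 genes (0%), and 14 genes (0.0877%), 0 of them members, had an unadjusted p under 0.05 in limma, or 179 (1.12%), again 0 of them members, with replicate blocks. In experiment 1 all 6 members had both peptide libraries above both water libraries, as 25.4% of all genes did, and in experiment 2 all 6 overlapped, while 0.426% of all genes were higher without overlap. CDKN1A and BTG2 were higher with the peptide in 5 of 5 same-numbered sets, as 6.86% of all genes were.

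Nutlin-3a against DMSO in cells with the peptide asks what is left of the response. The median of the 6 differences was 0.21 against -0.011 over all genes. BTG2 had 0.31 ± 0.39 (SE), PLK3 0.28 ± 0.29, CDKN1A 0.22 ± 0.29, GADD45A 0.19 ± 0.38, SFN 0.048 ± 0.36 and PLK2 0.0038 ± 0.44. Their 95% intervals, from the fit without replicate blocks, all held 0, and that of CDKN1A ran from -0.38 to 0.83. Single libraries moved these values to near 0: without replicate 2 of Nutlin-3a with peptide in experiment 2, CDKN1A had 0.060 and BTG2 0.013, and without its replicate 3 GADD45A had 0.011. Without replicate 1 of DMSO with peptide in experiment 2, PLK3 had 0.097. Limma called 0 genes (0%), and 26 genes (0.163%), 0 of them members, had an unadjusted p under 0.05, or 291 (1.82%), again 0 of them members, with replicate blocks. Limma-voom called 0 genes without replicate blocks and 16 with them, none a member. In each experiment the 2 groups overlapped for all 6 members, while 18.5% of all genes in experiment 1 and 0.902% in experiment 2 were higher without overlap. PLK3 differed in direction, with -0.10 in experiment 1 and 0.53 in experiment 2, where the level was 51.4 ± 14.0 scaled RPM with Nutlin-3a and 36.2 ± 12.8 with DMSO (SD, n = 3).

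The response with peptide minus the response with water, the interaction of both agents, was below 0 for all 6 members, with a median of -0.55 against 0.012 over all genes. BTG2 had -0.99 ± 0.55 (SE), CDKN1A -0.95 ± 0.41, GADD45A -0.67 ± 0.54, PLK3 -0.43 ± 0.42, PLK2 -0.25 ± 0.62 and SFN -0.19 ± 0.50, each with an adjusted p of 1 in limma. Limma called 0 genes (0%), and 28 had an unadjusted p under 0.05. CDKN1A was among those below 0 at that level, which were 0.113% of all genes. With replicate blocks 292 genes were at that level, and CDKN1A, BTG2, GADD45A and PLK2 were among those below 0, as 0.984% of all genes were. Limma-voom called 0 genes without replicate blocks and 4 with them, none a member. The value was below 0 in 5 of 5 sets for CDKN1A, BTG2, GADD45A and PLK2, as for 1.94% of all genes. In experiment 1 the interaction was -1.99 for BTG2 and -1.82 for CDKN1A, and in experiment 2 it was -0.32 and -0.37. Each comparison shares libraries with others, so these values are not independent of each other.

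The share of each gene's spread that went with the condition differed between the 2 experiments. With 8 libraries in experiment 1 and 12 in experiment 2, the 4 conditions take a larger share in experiment 1 by design. Each share is therefore set against the median over all genes of its experiment. In experiment 1 the condition accounted for 96.0% of the log2 sum of squares of CDKN1A, 89.5% of GADD45A, 88.0% of BTG2, 82.2% of PLK2, 70.8% of PLK3 and 41.3% of SFN, against a median of 40.5% over all genes. In experiment 2 the replicate number took the larger part of each member, from 46.9% for CDKN1A to 99.1% for SFN, against a median of 86.7% over all genes. The condition took 34.5% of CDKN1A, 24.8% of PLK3 and 24.4% of BTG2 there, but 0.948% of PLK2 and 0.142% of SFN, against a median of 5.30%.

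**Figure D3:**
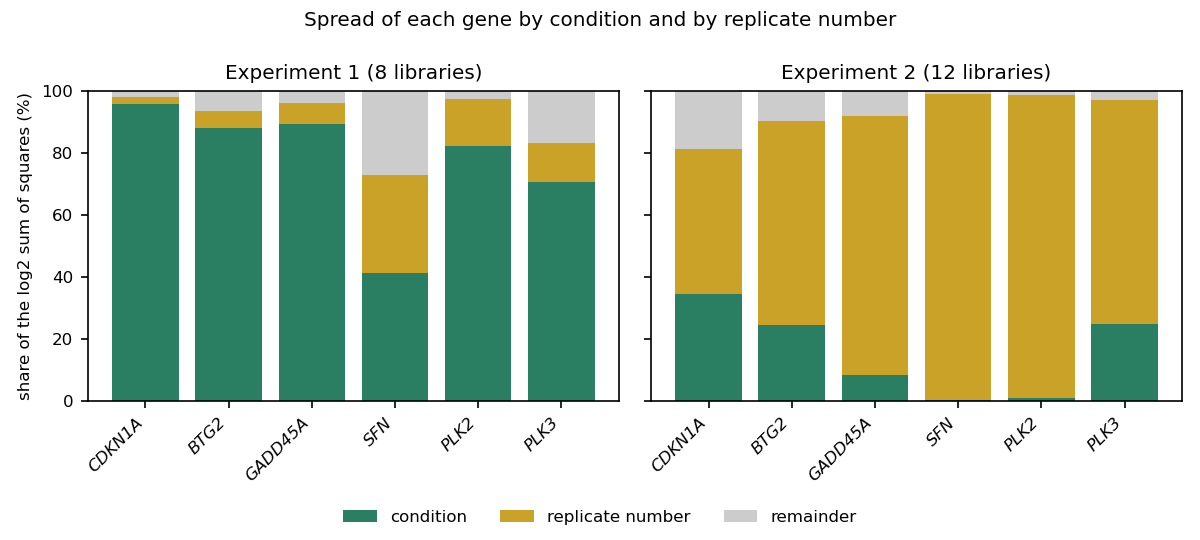
Share of each gene's sum of squares on the log2 scale that goes with the condition (green), with the replicate number (yellow) and with neither (grey), in the 8 libraries of experiment 1 and the 12 of experiment 2. The condition takes 96.0% for CDKN1A in experiment 1, and the replicate number takes 99.1% for SFN and 97.8% for PLK2 in experiment 2.

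Replicate 3 of experiment 2 set the members apart from each other in all 4 conditions. PLK2 and GADD45A were above the range of replicates 1 and 2, with 186.5 to 217.6 against 41.9 to 95.5 scaled RPM for PLK2 and 54.1 to 69.0 against 16.8 to 33.3 for GADD45A. BTG2 and SFN were below it, with 2.47 to 3.07 against 3.78 to 11.4 scaled RPM for BTG2 and 51.7 to 60.4 against 86.1 to 171.7 for SFN. CDKN1A and PLK3 overlapped. Of all genes, 17.7% lay above and 16.4% below. Immediate early genes, which respond within minutes to growth factors or stress, had 12 of 16 above and 0 below, among them EGR1, with 173.7 to 204.1 against 34.2 to 52.4 scaled RPM, and DUSP1, a phosphatase of MAP kinases, with 85.4 to 100.3 against 14.9 to 20.9. Of 26 other p53 targets 8 were below and 1 above. MDM2, the p53 ligase and itself a target, had 18.1 to 24.4 against 40.6 to 169.2 scaled RPM. EGR1, DUSP1 and MDM2 are named here after their values were seen. The part of replicate 3 in the fitted differences was not tested beyond leaving it out. Without its 4 libraries and with replicate blocks, limma called 15 genes (0.0940%) for Nutlin-3a against DMSO in water, among them BTG2 at 1.55 (adjusted p = 0.0448), CDKN1A at 1.40 (adjusted p = 0.0485) and GADD45A at 1.06 (adjusted p = 0.0396), and this choice was made after seeing the data.

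**Figure D4:**
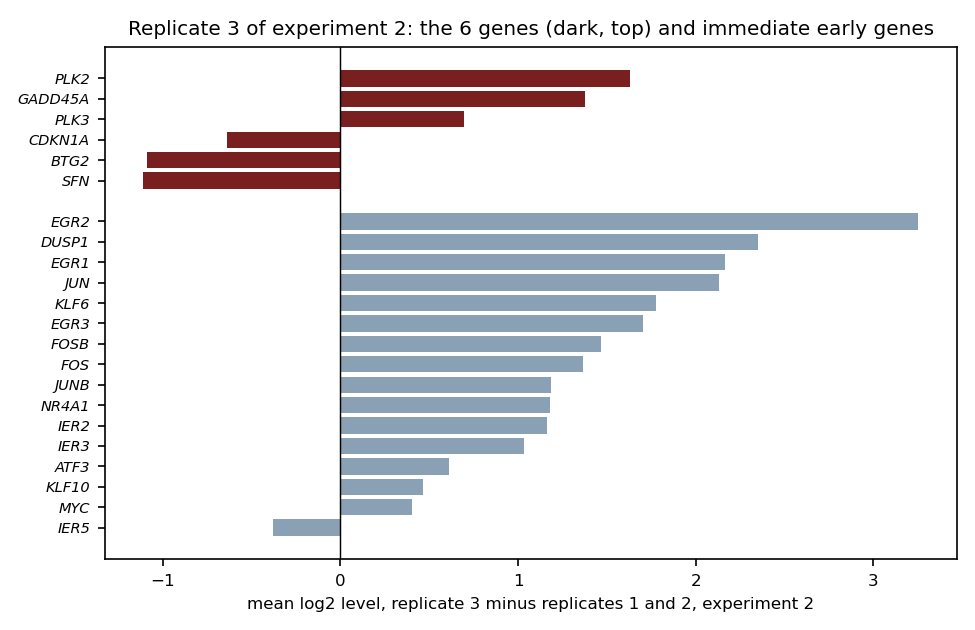
Mean log2 level in replicate 3 minus that in replicates 1 and 2 of experiment 2, over the 4 conditions, for the 6 genes (dark red, top) and for 16 immediate early genes (grey-blue). PLK2 (1.63), GADD45A (1.37) and PLK3 (0.70) lie on the side of most immediate early genes, while SFN (-1.11), BTG2 (-1.09) and CDKN1A (-0.64) lie on the other.

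With each same-numbered set centred on its own mean, the members fell into profiles of unlike closeness over the 20 libraries. CDKN1A and BTG2 had a Pearson correlation of 0.981, BTG2 and GADD45A 0.962, CDKN1A and GADD45A 0.949, and BTG2 and PLK3 0.911. The correlations of SFN with CDKN1A, BTG2, GADD45A and PLK3 were 0.606 to 0.692, and those of PLK2 with CDKN1A, BTG2 and GADD45A were 0.659 to 0.683. PLK2 and PLK3, 2 kinases of the same family, had 0.434. These are descriptions, and the libraries share sets, depth and the strong values of Nutlin-3a with water in experiment 1. Of all 15958 genes, those most like CDKN1A were BTG2, PHLDA3 (0.973) and SESN2 (0.969), and those most like BTG2 were CDKN1A, SESN2 (0.972) and PHLDA3 (0.971). GADD45A was followed by BTG2, PHLDA3 (0.961) and FAM212B (0.954). PLK3 was most like DUOX2 (0.949), GPR135 (0.928) and SESN2 (0.928), SFN was most like YIPF2 (0.965), PROCR (0.951) and GHDC (0.949), and PLK2 was most like FADS1 (0.915), HERPUD1 (0.849) and TMEM231 (0.838).

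Other genes around p53 and the cell cycle give the setting. None of the genes in these lists passed limma's test in any comparison. Of all 15958 genes, 7184 were above 0 and 8774 below 0 for Nutlin-3a against DMSO in water. For the peptide under Nutlin-3a, 9663 were above 0 and 6295 below 0. Of 26 other p53 targets, 25 were above 0 for Nutlin-3a against DMSO in water (median 0.55), and those with the smallest unadjusted p were the death receptor TNFRSF10B (0.62 ± 0.13 SE), then PHLDA3 (1.19 ± 0.28), the excision repair gene XPC (0.54 ± 0.13) and the damage recognition gene DDB2 (0.81 ± 0.21). For the peptide under Nutlin-3a 21 of 26 were below 0 (median -0.33). Of 10 regulators of p53, 4 were above 0 in the first comparison, among them MDM2 (0.96 ± 0.53) and the phosphatase gene PPM1D (0.49 ± 0.19), which are counted as targets too. Of 22 genes of the machinery the members act on (cyclins, their kinases, CDC25 phosphatases, the RB and E2F families, PCNA and WEE1), 18 were below 0 (median -0.10), and CDK1 had -0.29 ± 0.47. For the peptide under Nutlin-3a 21 of those 22 were above 0 (median 0.12), beside a median of 0.039 over all genes. There 13 of 15 paralogs of the members (median 0.082) and 8 of the 10 regulators (median 0.10) were above 0 too.

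Paralogs of the members, that is relatives by gene family, are the remaining setting. Of 15 paralogs, 14 were below 0 for Nutlin-3a against DMSO in water, as were 8774 of all 15958 genes. The median was -0.073 against -0.017 over all genes. Those with the smallest unadjusted p were YWHAE (-0.24 ± 0.16 SE), YWHAQ (-0.16 ± 0.17) and YWHAZ (-0.19 ± 0.21), which encode 14-3-3 proteins like SFN, and BTG3 (-0.20 ± 0.18), of the family of BTG2. CDKN1B and CDKN1C, which encode the related inhibitors p27 and p57, had -0.12 and 0.019, and are named after their values were seen. PANDAR, a noncoding RNA beside CDKN1A, had a mean of 0.0106 RPM and 0 reads in 13 of 20 libraries, which is too few to compare.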

How the data were processed

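Libraries of nuclear RNA came from a directional kit, and the tools HISAT2, bedtools and limma and the build hg38 come from the submitters' processing notes, per the labels; how strand was counted is not given in the sources used here. The deposited values are in another unit than counts: the authors' values are RPM divided by the stop coordinate minus the start divided by 1000. That divisor was removed, each column then summed to 1000000 RPM, and 100% of values were whole multiples of the column's smallest step, that is whole reads, at a tolerance of 0.001. RPM was scaled by TMM (30% of log ratios and 5% of abundances trimmed), and log2(scaled RPM + 0.5) was fitted with limma 3.58.1 (trend) in R 4.3.3, so fold changes of low genes are understated. The test was limma, which the submitters name, because the tables hold a normalized unit and no counts. DESeq2 and edgeR were not run on the recovered reads. The model had the condition and the experiment, over 20 libraries and the 15958 genes that averaged 0.5 RPM or more. The Benjamini-Hochberg adjustment ran over all genes of a comparison, and a call is an adjusted p under 0.05.

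The members and lists were chosen with earlier results of these data known. The text names the 6 members, the 3 genes most correlated with each over libraries centred within sets, and up to 4 genes a list by unadjusted p; other genes are named as chosen after their values were seen. Same-numbered libraries deviated together from their condition means (r of 0.286 to 0.585 over 12 pairs in experiment 1, mirrored because there are 2 replicates, and 0.877 to 0.940 over 18 pairs in experiment 2), so the numbers were treated as pairs on the evidence of the values, since no label says so, and a fit with 5 replicate blocks stands beside a result where it changes a call or count. Promoters are RefSeq sequences on GRCh38.p14, of which 5 of 6 members had an entry. Arms with 1 library left out, other scalings, filters, pseudocounts of 0.1 and 5, limma-voom on the recovered reads, each experiment alone and 8 group means were tried. The procedure was tested on simulated data. Python 3.11.15, pandas 2.3.3 and matplotlib 3.10.9 were used for the rest.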

Additional observations from a re-analysis of the deposited data

Results flagged for a closer look

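In experiment 2 the peptide's difference under Nutlin-3a lay above that of experiment 1 by 1.55 for CDKN1A and 1.64 for BTG2 (log2), and limma with replicate blocks called both (adjusted p = 0.0224 and 0.0483), while without blocks neither was called. The blocked fit called 52 genes in all (0.326% of those tested). With each of the 10 Nutlin-3a libraries left out in turn, the blocked fit of limma kept the call of CDKN1A in 3 and that of BTG2 in 1. The fit that kept BTG2, also 1 of the 3 for CDKN1A, left out replicate 1 of Nutlin-3a with water in experiment 1. In it the library that stood apart was that group alone, so its calls rest on that library. For PLK3, Nutlin-3a against DMSO in the peptide cells was below 0 in both same-numbered sets of experiment 1 and above 0 in all 3 of experiment 2. The experiments differed there by 0.64 (log2), with an adjusted p of 1 in limma and 0.285 with replicate blocks, so the difference did not pass.

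In 24 groups (6 genes in 4 conditions, 5 libraries each) a library counted as far from the others where its gap to the nearest exceeded 0.71 of the range of the group on the log2 scale, which chance gives in about 1 of 20 groups of independent libraries. These were not independent, since same-numbered libraries deviated together, and replicate 3 of experiment 2 was the lowest library for BTG2 and the highest for GADD45A in all 4 conditions, so that rate does not hold here. In DMSO with peptide of experiment 2, replicate 3 had 2.81 scaled RPM of BTG2, the lowest of its group, and 69.0 of GADD45A, the highest. Replicate 1 had 21.7 scaled RPM of PLK3, the lowest of its group.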

How the results depend on the processing

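Of the single-gene values, 524 kept direction and side of the threshold under the alternatives that did not leave out 1 library alone, 10 reversed and 6 passed a threshold they had missed. The causes were not tested. Scaling by total RPM turned PLK2 for Nutlin-3a with peptide to -0.0070. Experiment 1 alone, with or without blocks, gave medians of the 6 genes of -1.0043 for the peptide under Nutlin-3a and -1.24 for the interaction, -0.10 for PLK3 under Nutlin-3a with peptide, and 1 gene called in each of 3 comparisons. Experiment 2 alone, with or without blocks, gave 0.069 for the median of the peptide without Nutlin-3a, 0.030 for PLK3 with the peptide under Nutlin-3a, and -0.060 for SFN and -0.023 for PLK2 with Nutlin-3a in peptide cells. The fit with 8 group means called 1 gene in each of 3 comparisons, and no filter on low values called 1. Limma-voom with the replicate block called 15, 3, 16 and 4 genes (Nutlin-3a in water, peptide under Nutlin-3a, Nutlin-3a in peptide cells, interaction), and the replicate block without replicate 3 of experiment 2 called 15. The replicate block without the library that stood apart called 5 genes and gave SFN 0.030 for the peptide under Nutlin-3a. Beside the calls given in the text, the replicate block in limma changed no call. Experiments alone with blocks, the fit and levels without replicate 3, and the ratios without the library that stood apart were added after the data were seen.

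Leaving out each library in turn gave 0 calls in every comparison without blocks. Single-gene values kept direction and side of the threshold in 381 cases, reversed in 32 and passed a missed threshold in 7. The blocked differences between the experiments are included, and were set against the fit without blocks, which called no member. Calls of CDKN1A and BTG2 that the full blocked fit also made are therefore among the 7. Fits that lost those calls are among the 381. Among the 7, BTG2, GADD45A, SFN and PLK3 passed only in the fit without replicate 1 of Nutlin-3a with water in experiment 1. CDKN1A passed there too, and in that fit the library that stood apart was its group alone. For Nutlin-3a against DMSO in water, PLK2 ranged from -0.011 to 0.54 and SFN from 0.042 to 0.49. For the peptide under Nutlin-3a the median ranged from -0.62 to -0.24, CDKN1A from -0.9995 to -0.47, BTG2 from -1.21 to -0.50, GADD45A from -0.70 to -0.33, PLK3 from -0.58 to -0.15, SFN from -0.32 to 0.10 and PLK2 from -0.41 to 0.13. For the peptide without Nutlin-3a the median ranged from 0.081 to 0.20, CDKN1A from 0.11 to 0.34, BTG2 from 0.053 to 0.29, GADD45A from -0.17 to 0.48, SFN from -0.15 to 0.33, PLK2 from -0.20 to 0.42 and PLK3 from -0.12 to 0.25. For Nutlin-3a in peptide cells the median ranged from 0.13 to 0.31, CDKN1A from 0.060 to 0.34, BTG2 from 0.013 to 0.49, GADD45A from 0.011 to 0.52, PLK3 from 0.097 to 0.40, SFN from -0.16 to 0.27 and PLK2 from -0.30 to 0.32. For the interaction the median ranged from -0.74 to -0.34, BTG2 from -1.36 to -0.66, GADD45A from -0.9996 to -0.35, PLK3 from -0.64 to -0.22, SFN from -0.44 to 0.036 and PLK2 from -0.55 to 0.063. For the blocked difference between the experiments in the peptide's effect under Nutlin-3a, added after the data were seen, SFN ranged from -0.20 to 0.54 and PLK2 from -0.15 to 0.0112, with 0.0007 as its other positive value.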
